A study of Mus musculus with 6 samples.

Results

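The genes described here are the transcription machinery of RNA polymerase I and the ribosome biogenesis factors that act on its product, 38 genes chosen by symbol from a count table of 24421 genes. They were listed because I-PpoI, a homing endonuclease, cuts within the ribosomal DNA, and all 38 were found in the table and passed the filter on low counts. RNA-seq was done on kidney cortex of mice whose proximal tubular epithelial cells express I-PpoI (called PT-I-PpoI, 3 libraries) and of wild type mice (3 libraries). The driver of the transgene, the strain, the age and the time of induction are not given in the sources used here, and the transgene itself was not analysed here. The labels do not say whether the libraries are separate mice, and the p-values therefore measure the spread between these libraries only, which may be technical.

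RNA polymerase I works in the nucleolus and transcribes a single kind of gene, the tandem ribosomal DNA repeats, into the long precursor of the ribosomal RNAs. The upstream binding factor UBF and the selectivity factor SL1 mark the promoter, RRN3 brings the polymerase to it, and the precursor is then modified by small nucleolar ribonucleoproteins (snoRNPs), cleaved and folded into the small and the large ribosomal subunit. Breaks in ribosomal DNA are known to silence the affected repeats, with treacle (Tcof1) as the adaptor that calls repair proteins into the nucleolus. The libraries were made from polyadenylated RNA, so the values below are mRNA levels of the machinery and not rates of ribosomal RNA synthesis.

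No member was called different between PT-I-PpoI and wild type cortex, and the fitted log2 fold changes of all 38 lay between -0.24 and 0.23. None of them passed edgeR's quasi-likelihood test after Benjamini-Hochberg adjustment over all 13977 genes tested, none had an unadjusted p under 0.05, and none was called by DESeq2 (1.34% of all genes it tested were), limma-voom or limma on the deposited log2 values. Among all genes tested 0.136% were called, all higher, a count of 19 that fell to 0 without PT-I-PpoI replicate 1, without PT-I-PpoI replicate 2 or without wild type replicate 3, to 2 without wild type replicate 1 and to 9 without wild type replicate 2, and that reached 625 without PT-I-PpoI replicate 3. An unadjusted p under 0.05 was reached by 12% of all genes tested. The members' median log2 fold change was 0.04, against a median of 0.0004 over all genes tested, with 26 members above 0 and 12 below, where 50.1% of all genes tested lay above 0. The deposited library names come in a plain form (wild type replicate 1 and the first pair of PT-I-PpoI replicates) and a form with a hyphen before the final number (the other three libraries). Within the plain names the members' median was 0.08, and within the hyphenated names 0.01. The labels do not call the form of the name a batch.

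The intervals around these values were narrow. The 95% interval of the log2 fold change, taken gene by gene, lay within a 1.5-fold change in either direction for all 38 members, while 66% of all genes tested had such an interval. Among the 10109 genes at least as abundant as the least abundant member (a mean of 7.47 CPM, read pair counts scaled to the library total) the share was 84.7%. The widest reach upwards was that of Taf1c, at -0.42 to 0.58, and the widest reach downwards that of Taf1a, at -0.54 to 0.35. These genes, with low counts, encode subunits of SL1. With single libraries left out, 33 to 37 members stayed within 1.5-fold.

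**Figure D1:**
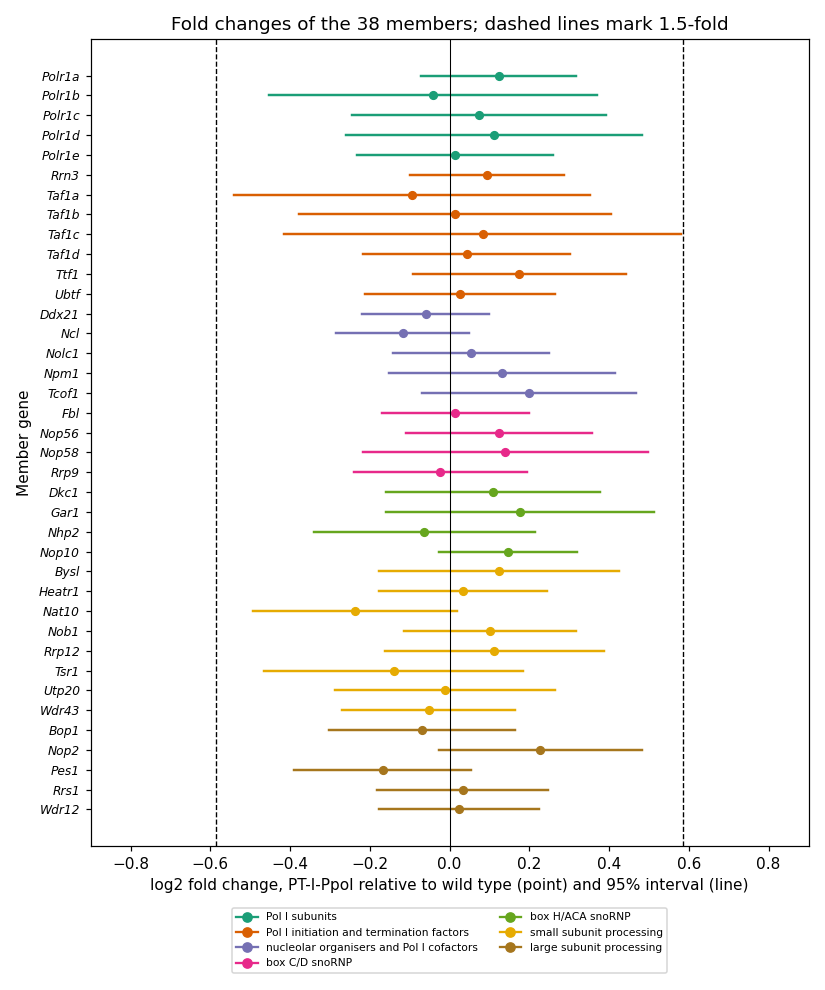
Log2 fold change of each of the 38 members in PT-I-PpoI relative to wild type (point) with its 95% interval (line), coloured by role, with dashed lines at a 1.5-fold change. Every interval crosses 0 and lies between the dashed lines, from -0.54 (Taf1a) to 0.58 (Taf1c).

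Total counts were between 13582540 and 20861021 read pairs per library. Cortex markers were present: 10 proximal tubule genes had summed levels from 32392 to 49730.1 CPM over the PT-I-PpoI libraries and from 44480.2 to 51837.1 CPM over the wild type ones, and 9 of the 10 had a log2 fold change below 0, with 0 called by edgeR and 1, Slc27a2, by DESeq2. Summed markers of the thick ascending limb, collecting duct and inner medulla were higher in all PT-I-PpoI libraries. The 6 thick ascending limb genes (2 called by edgeR, 5 by DESeq2) summed to 5849 to 5978 against 3998 to 4440.2 CPM, the 8 collecting duct genes (1 and 3 called) to 684 to 812 against 507 to 575 CPM, and the 4 inner medulla genes (0 and 1 called, with Akr1b3 at 0 in every library) to 353 to 475 against 212 to 286 CPM. Whether Akr1b3 was absent or its reads were not counted was not tested. The summed markers of the distal convoluted tubule, podocytes, endothelium, fibroblasts, macrophages and lymphocytes overlapped between the groups. Of the inner medulla genes, Slc14a2 was at 103, 84.1 and 83.8 CPM in the PT-I-PpoI libraries and 6.07, 28.6 and 20.8 CPM in wild type. Its log2 fold change was 2.32 ± 0.42 (edgeR adjusted p = 0.105, DESeq2 adjusted p = 0.0222), and all 3 tested genes of that list were above 0. Of these, Aqp3 overlapped between the groups (edgeR adjusted p = 0.360), and Slc5a3 also differed by the form of the library name (edgeR adjusted p = 0.00296). In whole cortex, fewer cells of a type and less RNA per cell cannot be told apart. The amount of medulla in each sample was not tested, nor was the part of these marker differences in the members' values.

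The members covered a wide range of levels. Per exon length, in RPKM (CPM divided by the exon length in kilobases), their mean over the 6 libraries ran from 2.21 for Rrp12, a small subunit export factor, to 121 for Npm1, the nucleolar chaperone nucleophosmin, with a median of 8.97 against 7.12 RPKM over all genes tested. Nop10, the smallest protein of the box H/ACA snoRNP, stood beside Npm1 at 121 RPKM. The ranges of these genes over the libraries, 105 to 144 RPKM for Npm1 and 114 to 137 RPKM for Nop10, overlapped, so their order is not resolved. Next came Nhp2 (58.5 RPKM), Polr1d (43.2), Fbl (37.4), Polr1c (36.1), Ncl (35.1) and Ubtf (26.5). At the other end lay Ttf1 (2.88 RPKM), Heatr1 (2.61), Taf1c (2.29) and Rrp12. The length used covers all annotated exons of a gene, and the transcripts present may be shorter, so this order depends on the annotation. Ncl, with 8257 exon bases, had a higher mean CPM (278 in PT-I-PpoI and 301 in wild type) than Npm1 (217 and 198).

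**Figure D2:**
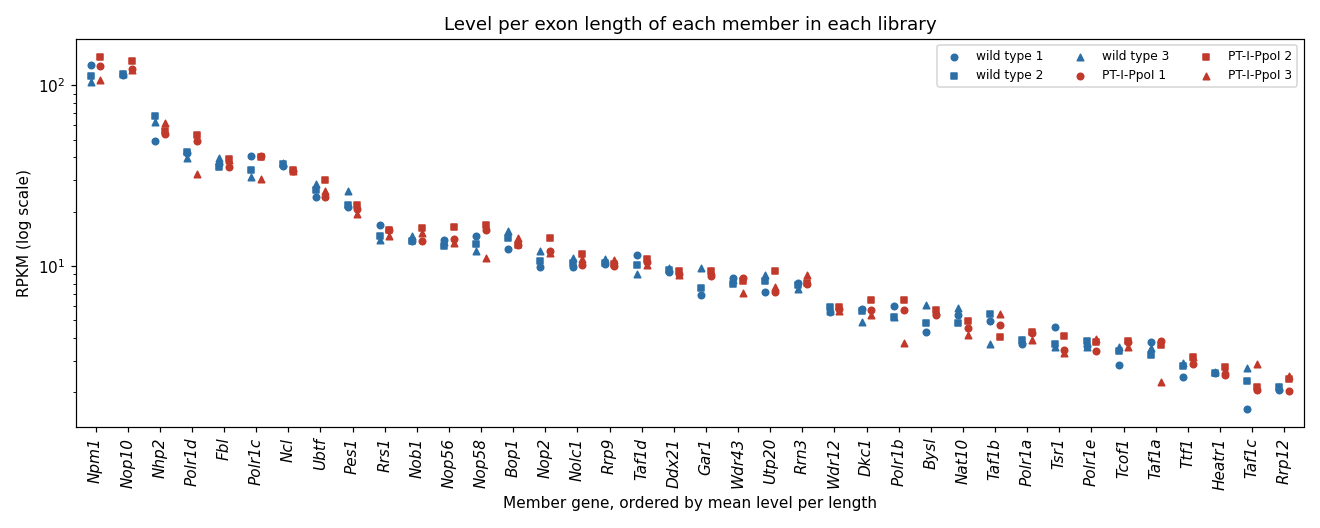
Level per exon length of each member in each library, in RPKM on a log axis, with genes ordered by their mean over the 6 libraries and the groups in different colours. Npm1 and Nop10 lie near 121 RPKM and Rrp12 near 2.21 RPKM, and at most genes the points of the groups overlap.

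Genes whose products work in 1 complex were not at 1 level per annotated exon length, with the same limit. In RNA polymerase I, the subunits that are shared with RNA polymerase III, Polr1c and Polr1d, were at 36.1 and 43.2 RPKM, while the catalytic subunits Polr1a and Polr1b were at 3.998 and 5.41 RPKM and Polr1e, which helps to recruit the polymerase, at 3.70 RPKM. The library ranges of the shared pair, 30.1 to 40.7 RPKM and 32.2 to 52.9 RPKM, lay above those of the other three subunits named here, while 8 further subunits outside the list ran from 5.10 to 78.0 RPKM with a median of 24.4. The box H/ACA snoRNP, which makes pseudouridine, showed the same kind of spread: its enzyme Dkc1 (dyskerin) was at 5.65 RPKM and Gar1 at 8.64 RPKM, against 58.5 and 121 RPKM for the small core proteins Nhp2 and Nop10. In the box C/D snoRNP, which methylates ribosomal RNA, the methyltransferase Fbl (fibrillarin) was at 37.4 RPKM and its partners Nop56 and Nop58 were at 14.03 and 13.98 RPKM. Of the PeBoW complex, needed for the large subunit, Pes1 was at 21.8, Bop1 at 13.8 and Wdr12 at 5.75 RPKM.

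Promoter sequences were read to show what the members share that the choice of genes did not use. RefSeq promoter windows (GRCm38.p6, 250 bases before to 50 after the start) were matched for 32 of the 38 members and 10631 of the genes tested, and searched on both strands. The E-box CACGTG, the element that MYC and MAX bind, was in the windows of 6 members (18.8%, against 11.5% of genes tested). The ETS core CCGGAAG was in those of 13 members (40.6%, against 18.6%), the GC box GGGCGG in 20 (62.5%, against 66.6%), CCAAT in 11 (34.4%, against 42.2%) and TATAAA in 2 (6.25%, against 8.98%). These shares are descriptions, and the motifs were chosen after a first look at the windows. Stretches upstream of the start follow for Nop2, which had the highest log2 fold change, for Rrn3, Polr1c and Ttf1 of the polymerase machinery and for Gar1 and Nhp2 of the box H/ACA particle, written 5′ to 3′ on the strand of the gene with E-boxes and ETS cores (also in reverse, CTTCCGG) in capitals.
Nop2, chr6:125131796-125131855, plus strand: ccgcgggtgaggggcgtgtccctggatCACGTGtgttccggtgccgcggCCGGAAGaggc
Rrn3, chr16:13780457-13780516, plus strand: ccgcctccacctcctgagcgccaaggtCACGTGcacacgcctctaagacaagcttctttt
Rrn3, chr16:13780624-13780683, plus strand: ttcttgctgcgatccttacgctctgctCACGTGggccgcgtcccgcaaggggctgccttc
Polr1c, chr17:46248054-46248114, minus strand: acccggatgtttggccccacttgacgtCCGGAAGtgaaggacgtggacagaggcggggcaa
Ttf1, chr2:29060206-29060262, plus strand: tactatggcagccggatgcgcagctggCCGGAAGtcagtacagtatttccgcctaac
Nhp2, chr11:51619723-51619772, plus strand: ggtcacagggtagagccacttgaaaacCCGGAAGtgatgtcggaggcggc
Gar1, chr3:129831406-129831466, minus strand: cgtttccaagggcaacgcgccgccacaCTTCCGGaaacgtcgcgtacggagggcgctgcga

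Members with an E-box lay on both sides of 0. The 6 members with an E-box were Nop2, Rrn3, Pes1, Utp20, Tsr1 and Wdr43. They held both the highest log2 fold change of the list, that of Nop2 at 0.23, and those of Pes1 (-0.17) and Tsr1 (-0.14), which are near 0 without wild type replicate 3 (-0.07) and wild type replicate 1 (-0.01) in turn, with 2 above 0 and 4 below. In Nop2 and Rrn3 the E-boxes lay before the start, and in the other four after it. Of the 13 members with an ETS core 10 had a log2 fold change above 0, with a median of 0.05 and a range of -0.14 to 0.23. Over all 38 members 26 were above 0, with a median of 0.04, so these values are close to those of the whole list. Nop2, Rrn3 and Tsr1 held both motifs. No member with either motif passed the test between the groups.

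The 5 subunits of RNA polymerase I had log2 fold changes from -0.04 to 0.12. Polr1a (chromosome 6, 71909053 to 71979360, mm10) encodes the largest subunit and had the smallest p of them. It was at 26.0, 26.4 and 23.9 CPM in the PT-I-PpoI libraries and 22.7, 23.9 and 23.7 CPM in wild type, in the order of the replicates. Every PT-I-PpoI library was higher, but PT-I-PpoI replicate 3 and wild type replicate 2 differed by less than the rounding, and the log2 fold change was 0.12 ± 0.09 (SE; edgeR adjusted p = 0.570). Polr1b (chromosome 2, 129100996 to 129126595), the other catalytic subunit, was at 23.0, 25.9 and 15.02 CPM in the PT-I-PpoI libraries and 24.0, 21.0 and 21.0 CPM in wild type. PT-I-PpoI replicate 3 was the lowest library and PT-I-PpoI replicate 2 the highest, so the groups overlapped fully, with means and SDs (n = 3 each) of 21.3 ± 5.62 against 21.97 ± 1.74 CPM. Polr1d was at 83.2, 89.3 and 54.4 CPM in the PT-I-PpoI libraries and 71.5, 72.3 and 66.6 CPM in wild type, with the same lowest and highest libraries.

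The 7 initiation and termination factors had log2 fold changes from -0.09 to 0.17, with 6 above 0. Ttf1 (chromosome 2, 29060263 to 29087650), the transcription termination factor of the ribosomal repeat, had the smallest p of this group, at 11.9, 13.1 and 13.04 CPM in the PT-I-PpoI libraries and 10.1, 11.6 and 12.1 CPM in wild type. The highest wild type library overlapped the lowest PT-I-PpoI library, and the log2 fold change was 0.17 ± 0.12 (edgeR adjusted p = 0.559), with a range over left-out libraries of 0.10 (without wild type replicate 1) to 0.23 (without wild type replicate 3). Ubtf (chromosome 11, 102304563 to 102319096), which encodes UBF, was at 116, 144 and 125 CPM in the PT-I-PpoI libraries and 115, 127 and 136 CPM in wild type. The libraries of the groups were interleaved (log2 fold change 0.03 ± 0.10). Rrn3 was at 28.8, 29.1 and 32.0 CPM in the PT-I-PpoI libraries and 29.0, 28.3 and 26.7 CPM in wild type, with a log2 fold change of 0.09 ± 0.08. The 4 SL1 subunits of the list, Taf1a, Taf1b, Taf1c and Taf1d, had log2 fold changes of -0.09, 0.01, 0.08 and 0.04. Taf1a was at 9.58, 9.10 and 5.67 CPM in the PT-I-PpoI libraries and 9.44, 7.95 and 8.72 CPM in wild type, with PT-I-PpoI replicate 3 far below the other five libraries. Taf1c was at 6.72, 7.01 and 9.35 CPM in the PT-I-PpoI libraries and 5.25, 7.57 and 8.92 CPM in wild type, where both groups spanned a similar range. The counting used no strand, and 481 exon bases of Taf1c overlap the opposite-strand gene Dnaaf1, so reads of that stretch cannot be assigned.

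Among the nucleolar organisers and cofactors, Ncl and Tcof1 lay at opposite ends. Ncl (chromosome 1, 86344719 to 86359455), the abundant nucleolar protein nucleolin, was at 276, 282 and 276 CPM in the PT-I-PpoI libraries and 296, 303 and 306 CPM in wild type. All PT-I-PpoI libraries were below all wild type libraries, yet the difference was small and missed the threshold (log2 fold change -0.12 ± 0.07, edgeR adjusted p = 0.529). Tcof1 (chromosome 18, 60813756 to 60848964), the treacle gene, was at 17.7, 17.8 and 16.4 CPM in the PT-I-PpoI libraries and 13.1, 15.7 and 16.5 CPM in wild type. Wild type replicate 1 was the lowest library, wild type replicate 3 overlapped PT-I-PpoI, and the log2 fold change was 0.20 ± 0.12 (edgeR adjusted p = 0.509), with a range over left-out libraries of 0.10 (without wild type replicate 1) to 0.27 (without wild type replicate 3). Npm1 (chromosome 11, 33152498 to 33163206), the most abundant member per length, was at 218, 248 and 185 CPM in the PT-I-PpoI libraries and 221, 193 and 179.8 CPM in wild type and did not separate by group (log2 fold change 0.13 ± 0.12, with single libraries left out 0.03 (without PT-I-PpoI replicate 2) to 0.24 (without PT-I-PpoI replicate 3)). Nolc1, a chaperone of snoRNPs, and Ddx21, an RNA helicase, had log2 fold changes of 0.05 ± 0.09 and -0.06 ± 0.07.

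The snoRNP protein genes had log2 fold changes from -0.02 to 0.14 for the 4 box C/D genes and -0.06 to 0.18 for the 4 box H/ACA genes. Nop10 (chromosome 2, 112261926 to 112262898) was at 90.3, 101 and 89.4 CPM in the PT-I-PpoI libraries and 83.8, 85.0 and 84.9 CPM in wild type. Wild type libraries were tightly grouped and all below PT-I-PpoI, and the log2 fold change was 0.15 ± 0.08 (edgeR adjusted p = 0.466), with a range over left-out libraries of 0.09 (without PT-I-PpoI replicate 2) to 0.18 (without PT-I-PpoI replicate 3). Gar1 (chromosome 3, 129824912 to 129831396) was at 11.2, 11.9 and 11.9 CPM in the PT-I-PpoI libraries and 8.81, 9.62 and 12.5 CPM in wild type. Here 1 wild type library was the highest of all 6 and 2 were the lowest, and the log2 fold change was 0.18 ± 0.15 (edgeR adjusted p = 0.637). It ranged from 0.07 (without wild type replicate 1) to 0.34 (without wild type replicate 3). Nop56 (chromosome 2, 130274412 to 130279313), a core protein of the box C/D particle, was at 26.6, 31.3 and 25.3 CPM in the PT-I-PpoI libraries and 26.2, 24.3 and 25.8 CPM in wild type (log2 fold change 0.12 ± 0.10, with single libraries left out 0.03 (without PT-I-PpoI replicate 2) to 0.19 (without PT-I-PpoI replicate 3)). Its partner Nop58 was at 31.4, 33.5 and 21.9 CPM in the PT-I-PpoI libraries and 29.0, 26.0 and 23.9 CPM in wild type (log2 fold change 0.14 ± 0.16), and PT-I-PpoI held both the highest libraries and the lowest. Fbl was at 40.9, 45.2 and 44.8 CPM in the PT-I-PpoI libraries and 42.6, 41.0 and 45.8 CPM in wild type, with the groups interleaved (log2 fold change 0.01 ± 0.08). Nhp2 was at 53.8, 56.4 and 62.1 CPM in the PT-I-PpoI libraries and 49.5, 68.0 and 62.7 CPM in wild type (log2 fold change -0.06 ± 0.12), and here wild type held both the lowest and the highest library. Dkc1 and Rrp9, a protein of the U3 particle, had log2 fold changes of 0.11 ± 0.12 and -0.02 ± 0.10.

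Nat10 and Nop2 had the smallest unadjusted p of all members. Nat10 (chromosome 2, 103721259 to 103761250), the RNA acetyltransferase of the small subunit, was at 17.5, 19.1 and 15.9 CPM in the PT-I-PpoI libraries and 20.6, 18.8 and 22.6 CPM in wild type. PT-I-PpoI was lower on average, at 17.5 ± 1.57 against 20.7 ± 1.92 CPM (SD, n = 3 each), but its replicate 2 was above wild type replicate 2, and the log2 fold change was -0.24 ± 0.11 (edgeR adjusted p = 0.436). Nop2 (chromosome 6, 125131883 to 125144753), a ribosomal RNA methyltransferase of the large subunit, was at 31.6, 37.4 and 30.8 CPM in the PT-I-PpoI libraries and 25.9, 27.8 and 31.7 CPM in wild type. PT-I-PpoI replicate 2 stood highest, wild type replicate 3 overlapped the remaining PT-I-PpoI libraries, and the log2 fold change was 0.23 ± 0.11 (edgeR adjusted p = 0.447), with a range over left-out libraries of 0.13 (without PT-I-PpoI replicate 2) to 0.31 (without wild type replicate 3). Pes1 (chromosome 11, 3963975 to 3980004) was at 60.4, 63.0 and 56.2 CPM in the PT-I-PpoI libraries and 62.1, 63.6 and 76.1 CPM in wild type. Wild type replicate 3 was the highest library, and the log2 fold change was -0.17 ± 0.10 (edgeR adjusted p = 0.502) with it and -0.07 without it.

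The remaining processing factors spanned -0.14 to 0.12 on the log2 scale. Tsr1 (chromosome 11, 74898080 to 74909340), a pre-40S assembly factor, was at 11.6, 13.8 and 11.1 CPM in the PT-I-PpoI libraries and 15.7, 12.6 and 12.1 CPM in wild type, with a log2 fold change of -0.14 ± 0.14 that ran from -0.24 (without PT-I-PpoI replicate 2) to -0.01 (without wild type replicate 1) with single libraries left out. A stretch of 1159 of its exon bases overlaps Srr on the opposite strand. Rrp12 (chromosome 19, 41862851 to 41896153) was at 8.84, 10.3 and 10.6 CPM in the PT-I-PpoI libraries and 8.96, 9.24 and 9.26 CPM in wild type, a log2 fold change of 0.11 ± 0.12 that ran from 0.06 (without PT-I-PpoI replicate 3) to 0.19 (without PT-I-PpoI replicate 1). Heatr1 and Utp20, large scaffold proteins of the small subunit processome, were at 0.03 ± 0.09 and -0.01 ± 0.12, and Wdr43, of the same assembly, at -0.05 ± 0.10. Bysl, Nob1, Bop1, Rrs1 and Wdr12 had log2 fold changes of 0.12, 0.10, -0.07, 0.03 and 0.02. Bysl shares 358 exon bases with Ccnd3 on the opposite strand, and reads of that stretch cannot be assigned.

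**Figure D3:**
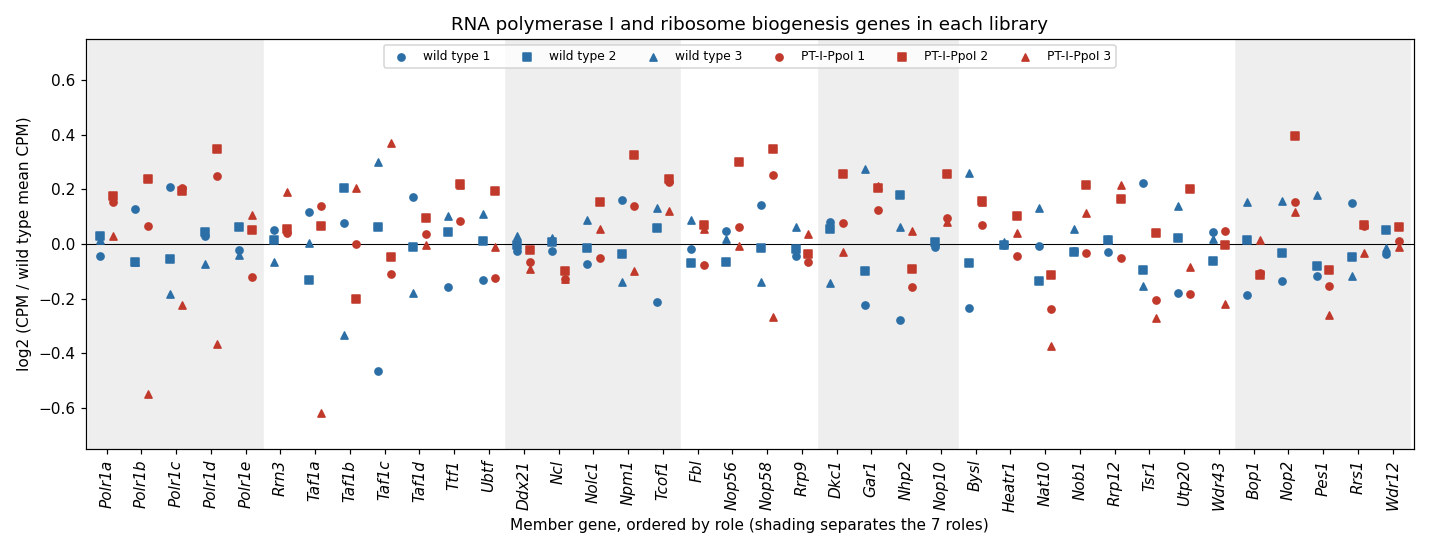
CPM of each member in each library relative to the wild type mean, on a log2 scale, with members ordered by role (shaded bands) and 1 symbol per library. The red (PT-I-PpoI) and blue (wild type) points overlap for 35 of the 38 genes, and PT-I-PpoI replicate 3 lies lowest for Polr1b, Polr1d and Taf1a.

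The groups did not overlap for 3 of the 38 members, with 2 higher in PT-I-PpoI (Polr1a and Nop10) and 1 lower (Ncl). Over all genes tested 17% separated in this way, 9.23% higher and 7.74% lower, so the members did not separate more often than genes at large. Single libraries stood out instead. PT-I-PpoI replicate 2 was the highest library for 17 members (44.7%, against 22.4% of all genes tested) and the lowest for 0 (against 22.2%). Wild type replicate 1 was the lowest for 13 members (34.2%, against 16.5%), and PT-I-PpoI replicate 3 for 10 (26.3%, against 16.1%). The last 10 were Polr1b, Polr1c, Polr1d, Taf1a, Nop58, Pes1, Tsr1, Ddx21, Nat10 and Wdr43. Without PT-I-PpoI replicate 3, Polr1d, Nop58, Nop2 and Nop10 had an unadjusted p under 0.05, with a smallest edgeR adjusted p of 0.0637 among the members, in a fit that called 625 genes of the whole table. Without wild type replicate 3 the members under that level were Nop2, Gar1 and Bysl, and Nat10 alone was under it when replicate 2 of either group was left out. The share of all genes under that level was not counted in these fits. With all libraries it was 12%, so these members are not shown to exceed genes at large.

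One member, Polr1c, passed a test between the forms of the library name. This comparison was added after the data were seen, and it is of names that the labels do not call a batch. With the group as a term, 10 of the 38 members had an unadjusted p under 0.05 between the forms, 3 higher and 7 lower in hyphenated libraries, against 18.8% of all genes tested (9.82% higher, 9.01% lower). After adjustment 1 member passed (3.06% of all genes tested did). Polr1c (chromosome 17, 46243920 to 46248045) was at 52.9, 52.5 and 39.3 CPM in the PT-I-PpoI libraries and 53.1, 44.1 and 40.4 CPM in wild type. All plain libraries were above all hyphenated ones, a log2 difference of -0.37 ± 0.08 (edgeR adjusted p = 0.0367). The call was lost when any 1 library other than wild type replicate 1 was left out (edgeR adjusted p from 0.0643 to 0.139), and without wild type replicate 1 Polr1b, Polr1d and Nop58 passed beside it.

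Npm1, Nop58 and Polr1b did not pass after adjustment, at log2 differences of -0.29 ± 0.08, -0.39 ± 0.11 and -0.43 ± 0.13 (edgeR adjusted p = 0.0902, 0.0910 and 0.115). Taf1c and Nhp2 had differences in the other direction, 0.55 ± 0.14 and 0.29 ± 0.08 (edgeR adjusted p = 0.0799 and 0.105). The median over the 38 members was 0.02. When the name form entered the group comparison as a term, 0 members were called again (0.458% of all genes tested were called), and 1 member, Nat10, had an unadjusted p under 0.05 (log2 fold change -0.27 ± 0.12, edgeR adjusted p = 0.383), against 12.6% of all genes tested.

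**Figure D4:**
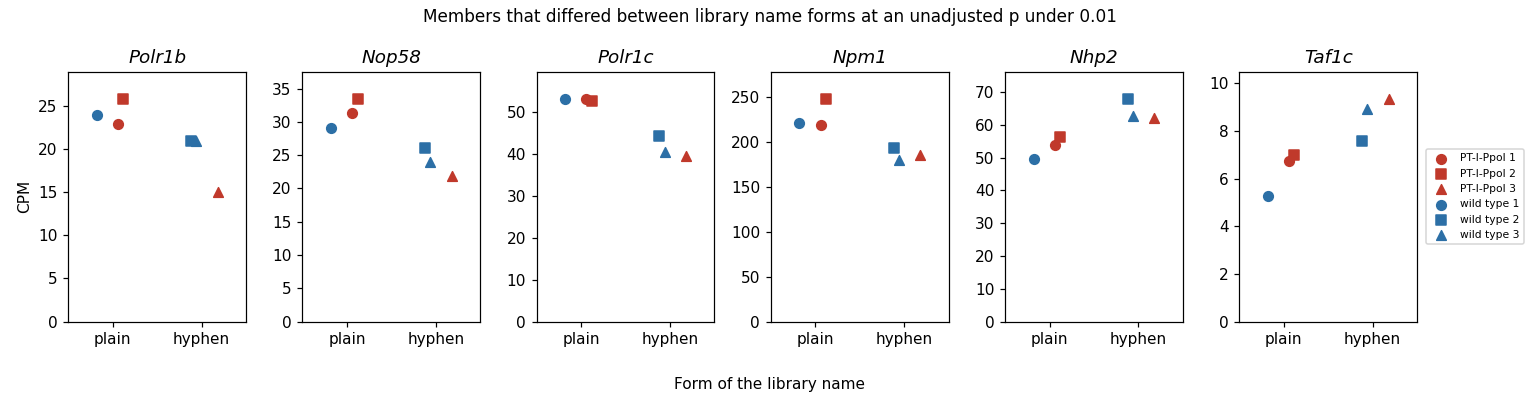
CPM of the 6 members with an unadjusted p under 0.01 between the forms of the library name, by form (plain or with a hyphen before the final number), with 1 point per library. In each panel the 3 plain and the 3 hyphenated libraries do not overlap, with Polr1b, Nop58, Polr1c and Npm1 lower and Nhp2 and Taf1c higher in hyphenated libraries. The panels were chosen by that p, which makes such a separation likely, and its share over all genes was not counted.

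The wider pathway held no call by edgeR either. Of 184 other genes found in the table from 10 lists (polymerase subunits, subunit processing factors, the RNA exosome and RNase MRP, snoRNA host genes, ribosomal RNA, regulators, nucleolar break response, nucleolar stress and RNA polymerase III) 181 were tested and 0 passed. At an unadjusted p under 0.05, 3 were higher and 2 lower, against 6.42% and 5.61% of all genes tested. DESeq2 called 1, Pop1, and limma-voom and limma on the log2 values called 0. The 42 further genes of the small subunit processome had a median log2 fold change of 0.02, and the 48 of large subunit processing 0.01, with extremes of -0.20 and 0.26 for the former and -0.20 and 0.19 for the latter. In those lists Ngdn, a processome protein, had the smallest p, at 36.1, 38.1 and 32.0 CPM in the PT-I-PpoI libraries and 30.0, 29.4 and 29.4 CPM in wild type, where all PT-I-PpoI libraries were higher (log2 fold change 0.26 ± 0.09, edgeR adjusted p = 0.329). Senp3, a nucleolar SUMO protease, was at 54.5, 53.1 and 57.4 CPM in the PT-I-PpoI libraries and 57.6, 63.1 and 62.4 CPM in wild type (log2 fold change -0.15 ± 0.08).

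Pop1 (chromosome 15, 34495311 to 34530653), a protein of RNase MRP and RNase P, which cut ribosomal RNA precursor and transfer RNA, had the smallest p of the pathway. It was at 13.6, 13.02 and 17.1 CPM in the PT-I-PpoI libraries and 21.1, 22.2 and 21.9 CPM in wild type. All PT-I-PpoI libraries lay below all wild type libraries, at 14.6 ± 2.19 against 21.7 ± 0.535 CPM (SD, n = 3 each), and the log2 fold change was -0.58 ± 0.12. It missed the threshold by edgeR over all genes (adjusted p = 0.166) and passed by DESeq2 (adjusted p = 0.0176) and by edgeR without PT-I-PpoI replicate 3 (adjusted p = 0.0158). Within the name forms its log2 difference was -0.66 without and -0.36 with a hyphen. Among the other settings with all libraries, edgeR, limma-voom and limma on the log2 values gave adjusted p from 0.0916 to 0.168.

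Among regulators of ribosomal RNA synthesis, Kdm2b, a histone demethylase that has been placed at ribosomal DNA, had the smallest p, at 23.0, 19.8 and 20.4 CPM in the PT-I-PpoI libraries and 16.1, 17.8 and 15.1 CPM in wild type (log2 fold change 0.37 ± 0.11, edgeR adjusted p = 0.268). Its groups did not overlap. Mtor, the kinase that couples nutrients to ribosome production, was at 137, 138 and 197 CPM in the PT-I-PpoI libraries and 192, 229 and 209 CPM in wild type (log2 fold change -0.42 ± 0.15, edgeR adjusted p = 0.348), and PT-I-PpoI replicate 3 lay among the wild type libraries. Myc, chosen after its values were seen as the best-known activator of these genes, was at 15.5, 18.2 and 6.66 CPM in the PT-I-PpoI libraries and 9.49, 8.93 and 6.03 CPM in wild type. PT-I-PpoI replicates 1 and 2 were the highest of the 6 libraries and replicate 3 was among the lowest (log2 fold change 0.74 ± 0.33, edgeR adjusted p = 0.421). Without PT-I-PpoI replicate 3, Myc (1.05 ± 0.19, edgeR adjusted p = 0.03003), Mtor (-0.61 ± 0.09, 0.0204), Snhg20 (0.50 ± 0.11, 0.0489) and Polr3e (-0.69 ± 0.12, 0.0257) passed beside Pop1, while 0 of the 38 members did. The same fit called 625 genes over the whole table, so passing it does not set these genes apart. Within the forms, the log2 difference of Myc was 0.82 without and -0.14 with a hyphen.

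Among genes that carry snoRNAs in their introns, 4 passed the test between the forms of the library name and 0 that between the groups. Of 18 listed 13 were tested, with a median log2 fold change between the groups of 0.18, and 0.16 and -0.07 within the forms. Snhg20 had the smallest p of them, at 21.2, 23.8 and 17.4 CPM in the PT-I-PpoI libraries and 17.4, 14.8 and 15.5 CPM in wild type (log2 fold change 0.39 ± 0.13, edgeR adjusted p = 0.333). Between the name forms 11 of the 13 were lower in hyphenated libraries at an unadjusted p under 0.05, against 9.01% of all genes tested, and 4 passed after adjustment, against 1.29%. Snhg1, host of several box C/D snoRNAs, was at 18.5, 21.0 and 10.1 CPM in the PT-I-PpoI libraries and 19.9, 12.04 and 11.9 CPM in wild type, with all hyphenated libraries below all plain ones and a log2 difference of -0.84 ± 0.11 (edgeR adjusted p = 0.00868). Snhg12 was at 22.4, 25.1 and 14.95 CPM in the PT-I-PpoI libraries and 22.2, 15.2 and 16.3 CPM in wild type (-0.58 ± 0.10, edgeR adjusted p = 0.0253). When single libraries were left out, the number of the 13 lower at an unadjusted p under 0.05 was 6 to 10 (6 without PT-I-PpoI replicate 3), and 1 to 5 passed (1 without PT-I-PpoI replicate 1 or 3 or wild type replicate 2 or 3, 2 without PT-I-PpoI replicate 2). Snhg6 and Snhg8 were the other two that passed.

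Rn45s (chromosome 17, 39842997 to 39848829), the table's entry for the ribosomal RNA precursor, was the one direct product of RNA polymerase I among the tested genes. It was at 3096, 2162 and 3027 CPM in the PT-I-PpoI libraries and 1846, 4933 and 3403 CPM in wild type. Wild type replicate 1 was the lowest library and wild type replicate 2 the highest, so the wild type group alone spanned the range, and the log2 fold change was -0.30 ± 0.31 with an interval of -1.004 to 0.41 (edgeR adjusted p = 0.708). It was 0.07 without wild type replicate 2 and -0.59 without wild type replicate 1, and within the name forms the log2 difference changed sign, 0.49 without and -0.44 with a hyphen. Ribosomal RNA has no poly(A) tail and these libraries were selected for one, so this value does not measure the precursor's level in the tissue. The interval leaves room for a difference of either sign.

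In the lists for the nucleolar responses to breaks and stress, and for the sister polymerase, 0 genes were called. The 12 genes of the nucleolar break response, among them the kinases Atm and Atr, had a median log2 fold change of -0.02 and extremes of -0.19 and 0.21, the latter that of Mdc1, a chromatin adaptor at breaks (19.1 ± 1.66 against 16.5 ± 0.916 CPM, edgeR adjusted p = 0.456). Of the genes that link nucleolar stress to p53, 7 were tested, with a median of 0.10, and the smallest p was that of Rpl23, a ribosomal protein that binds Mdm2, at 323, 359 and 282 CPM in the PT-I-PpoI libraries and 273, 285 and 277 CPM in wild type (log2 fold change 0.21 ± 0.10, edgeR adjusted p = 0.444). PT-I-PpoI replicate 3 overlapped wild type. The 12 genes of RNA polymerase III had a median of -0.05, and Polr3g had the smallest p (-0.21 ± 0.16, edgeR adjusted p = 0.598). Of the 8 further polymerase subunits Polr2f, shared by the nuclear RNA polymerases, had the smallest p, at 43.8, 46.3 and 39.9 CPM in the PT-I-PpoI libraries and 39.9, 38.2 and 35.3 CPM in wild type (log2 fold change 0.20 ± 0.09, edgeR adjusted p = 0.416).

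**Figure D5:**
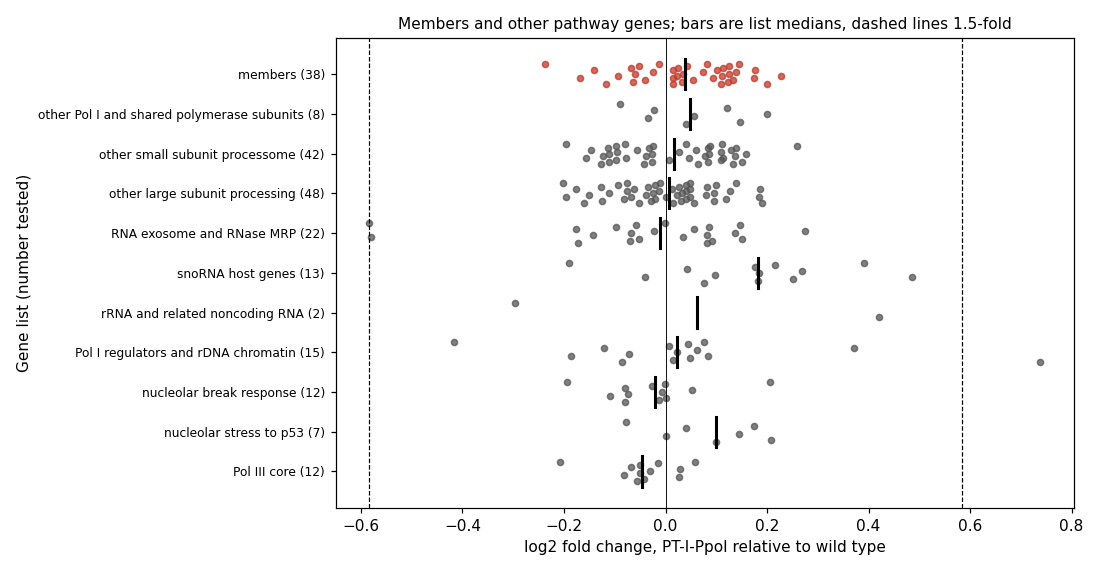
Log2 fold change in PT-I-PpoI relative to wild type for the 38 members (red) and the tested genes of 10 further lists (grey), with a bar at each list's median and dashed lines at a 1.5-fold change. The members lie between -0.24 and 0.23, and the points farthest from 0 are Myc at 0.74 and the RNase genes Pop1 and Rpp25, both at -0.58 (Rpp25 at under 1 CPM in wild type on average).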

How the data were processed

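Kidney cortex RNA was measured in 6 libraries made with a stranded kit for polyadenylated RNA, per the labels' protocols. The authors deposited raw read pair counts per gene, from HISAT2 alignments (per the labels' protocols). Counting was over exons with featureCounts 1.5.2, both mates required and no strand option set, per the file headers. The header names mm10 and the labels mm9. All 38 members overlapped their GRCm38.p6 (mm10) positions, and 3 of 37 their mm9 positions, so coordinates are mm10. The authors also deposited log2 values on the regularized log scale for 17918 genes (the submitters' processing notes name DESeq2). These values served 1 alternative.

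Counts were tested in R 4.3.3 with edgeR 4.0.16 (TMM factors, default expression filter with a minimum count of 10, quasi-likelihood test, two-sided, Benjamini-Hochberg adjustment over 13977 genes, threshold 0.05). CPM used TMM-adjusted totals. The 95% intervals came from the fitted value, its SE and a t quantile, and the procedure was tested on simulated data. DESeq2 1.42.0 and limma 3.58.1 were alternatives, with other factors and filters, a replicate block, the name form as a term and leaving out each library. Total counts were 13582540 to 20861021 per library, and the precision also depends on the spread between the libraries of a group.

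The members, the pathway lists and the tests were chosen with earlier results of these data known. All members may be named. Full values are given for the member with the smallest p of each role, the 3 highest and 3 lowest fold changes, the 3 smallest p and the extremes of level, and for each pathway list the gene with the smallest p and Rn45s. Of the cell type markers they are given for Slc12a1, Slc34a1 and Slc14a2. Further genes with full values (Polr1b, Polr1c, Polr1d, Ubtf, Rrn3, Taf1a, Taf1c, Ncl, Nop58, Fbl, Nhp2, Polr3e, Skiv2l2, Mtor, Myc, Snhg1, Snhg12) were chosen after their values were seen.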

Additional observations from a re-analysis of the deposited data

How the results depend on the processing

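No member was called under any of the 15 alternatives run, and the members' median log2 fold change stayed between 0.02 and 0.06 with all libraries and between 0.004 (without PT-I-PpoI replicate 2) and 0.07 (without PT-I-PpoI replicate 1) with 1 left out. The number of members whose interval lay within 1.5-fold was 36 to 38 with all libraries and 33 to 37 with 1 left out. The count of genes called over the whole table was less stable. It was 47 (44 higher, 3 lower) with no expression filter, 187 (128 higher, 59 lower) by DESeq2, 64 (49 higher, 15 lower) once the name form was a term and 0 to 625 when single libraries were left out, against 19. Other pathway genes called numbered 1 by DESeq2 and 0 to 5 when single libraries were left out, against 0, with 5 called without PT-I-PpoI replicate 3. The cause was not tested. With the replicate number as a replicate block, 40 genes were called (33 higher, 7 lower), 0 of them members. The labels state no litter or day for libraries of the same number. Same-numbered libraries correlated at 0.22, -0.13 and 0.16 in their deviations from the group means, and 3 of 6 libraries correlated best with the same number. With so few libraries a group, these values cannot decide whether the numbers pair the samples. With 3 libraries a group, the data leave room for any change within the intervals given.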

Other observations

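Polr3e, a subunit of RNA polymerase III, had a single library apart from the others. It was at 63.0, 66.9 and 172 CPM in the PT-I-PpoI libraries and 122, 94.6 and 98.3 CPM in wild type. PT-I-PpoI replicates 1 and 2 were the lowest of the 6 libraries and replicate 3 the highest, with no call between the groups (log2 fold change -0.07 ± 0.35, edgeR adjusted p = 0.951).

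Skiv2l2, the helicase that feeds ribosomal RNA precursor to the RNA exosome, was the 1 pathway gene outside the snoRNA hosts that differed by the form of the library name after adjustment, and it was higher in hyphenated libraries. It was at 56.9, 59.4 and 71.6 CPM in the PT-I-PpoI libraries and 53.5, 77.5 and 80.7 CPM in wild type, a log2 difference of 0.43 ± 0.08 (edgeR adjusted p = 0.0290). This gene was singled out after its values were seen.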
